A study of Mus musculus with 12 samples.

Results

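The collagen genes were taken as all probe sets whose annotation names a single gene with a symbol of the form Col, a number, a, and a number. The rule found 47 probe sets for 44 genes, of 22180 genes named by a single symbol on the array. Col1a2, Col5a1 and Col6a1 (3 genes) had several probe sets, and for each the one with the highest mean over the 12 arrays stands for the gene. The choice used the symbols and, for those 3 genes, the mean level, and did not use any difference between groups.

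Livers came from male mice aged 8 weeks at the start of diets that ran for 9 weeks. Wild-type mice (WT) and Lats2-CKO mice, also called Lats2-KO in the labels, received a chow without cholesterol (normal diet, ND) or a Paigen diet with 1.25% cholesterol (high-cholesterol diet, HCD). Total RNA was measured on single-colour Affymetrix arrays, with 3 biological replicates in each of the 4 groups, and the labels name neither the cells that lack Lats2 nor the deleted stretch of the gene. Lats2 is a Hippo pathway kinase that holds back the transcriptional coactivators YAP and TAZ. The comparisons asked whether the diet, the genotype, or their combination altered the RNA levels of the liver's collagens.

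Collagens are secreted or membrane proteins built from 3 polypeptide chains wound into a triple helix, and each gene encodes 1 kind of chain. Fibrillar collagens such as types I, III and V assemble into the fibres that accumulate in a scarred liver, where activated stellate cells and portal fibroblasts are their main source. Type IV collagens form the sheet-like network of basement membranes, and types XV and XVIII lie in the zone beneath it. The fibril-associated types XII and XIV bind to the surface of fibres, and type VI forms beaded filaments between cells and fibres.

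The values are log2 expression values, and a difference of 1 log2 unit is a 2-fold difference. The medians of the 12 arrays lay between 3.42 and 3.49. Precision is limited by having 3 arrays a group. Lats2 itself lay between 4.37 and 4.99 on the 6 Lats2-CKO arrays and between 5.12 and 5.97 on the 6 wild-type arrays, so the 2 genotypes did not overlap. Albumin (Alb), a defining hepatocyte product, lay between 13.2 and 13.4 on every array. The array medians fell into a higher and a lower set of 6 arrays each, split at the widest gap between them, and each group had 1 or 2 arrays in each set. Values within the sets are given below in that order, with no test. Array 3 of wild type on ND stood apart. It was the only wild-type array on ND in the lower set, and array 1 was the only wild-type array on HCD in the higher set. Each wild-type diet difference within a set therefore rests on 1 array on one side. Without it the number of genes called for diet in wild type went from 0 to 516, and for diet over both genotypes from 274 to 1605, and 0 collagens were among either.

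Many collagens were dim. The 30th percentile of all values, 3.05, is called the dim value here, and 21 of the 44 collagens (47.7%) had a mean below it, compared with 30.6% of all genes. Those 21 comprised 4 of 11 fibrillar collagens, 3 of 6 type IV collagens, 2 of 4 in the basement membrane zone (types VII, XV, XVII and XVIII), 3 of 6 type VI chains and 5 of 9 fibril-associated collagens. The short-chain network collagens had 2 of 3 below it, and the transmembrane and remaining collagens 2 of 5. On arrays in general, changes of genes near background are compressed, and a small difference there does not show that the RNA differed little. In whole liver, fewer cells of a type and less RNA per cell cannot be told apart.

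No collagen passed the test in any comparison. In the limma fit over all 12 arrays with Benjamini-Hochberg adjustment over 22180 genes, 0 of 44 collagens had an adjusted p below 0.05 for diet in wild type (0% of all genes), diet in Lats2-CKO (0.271%), genotype on ND (0.0135%) or genotype on HCD (0%). The same held for diet over both genotypes (1.24% of all genes), genotype over both diets (0.00451%) and the interaction, which is the diet difference in Lats2-CKO minus that in wild type (0.00451%). The smallest adjusted p of any collagen in limma was 0.328 for diet in wild type, 0.237 for diet in Lats2-CKO and 0.177 for diet over both genotypes. For genotype it was 0.412 on ND, 1 on HCD and 0.771 over both diets, and for the interaction 0.888. With shares this small among all genes, 0 of 44 is also close to the background.

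At an unadjusted p below 0.05, 2 collagens were higher and 0 lower with the diet in wild type (4.03% and 6.56% of all genes). In Lats2-CKO 3 were higher and 3 lower (6.21% and 7.24%), and over both genotypes 5 were higher and 1 lower (7.56% and 10.4%). The Lats2-CKO livers had 2 collagens higher and 0 lower than wild type on ND (3.54% and 5.45%), 1 higher and 1 lower on HCD (0.987% and 1.94%), and 2 higher and 1 lower over both diets (2.20% and 3.77%). The interaction had 1 above and 1 below 0 (3.37% and 2.25%). Counts this small stand near those shares of 44 genes.

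The measured sizes were bounded, though those of the 21 dim collagens may be compressed. The 95% interval of the difference lay within a 2-fold change in both directions for 43 of 44 collagens for diet in wild type (90.8% of all genes) and for 42 in Lats2-CKO (89.4%). Over both genotypes it did so for all 44 (94.6%). Of the 23 collagens above the dim value it did so for 22 in wild type and 21 in Lats2-CKO. Of all 15401 genes above it, 13389 and 13074 did so. The collagens whose intervals reached past 2-fold were Col14a1 and Col4a1. The median standard error of a collagen was 0.12 between groups of 3 arrays, and 0.17 for the 23 above the dim value. In the plot of diet differences most points lie near 0.

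**Figure D1:**
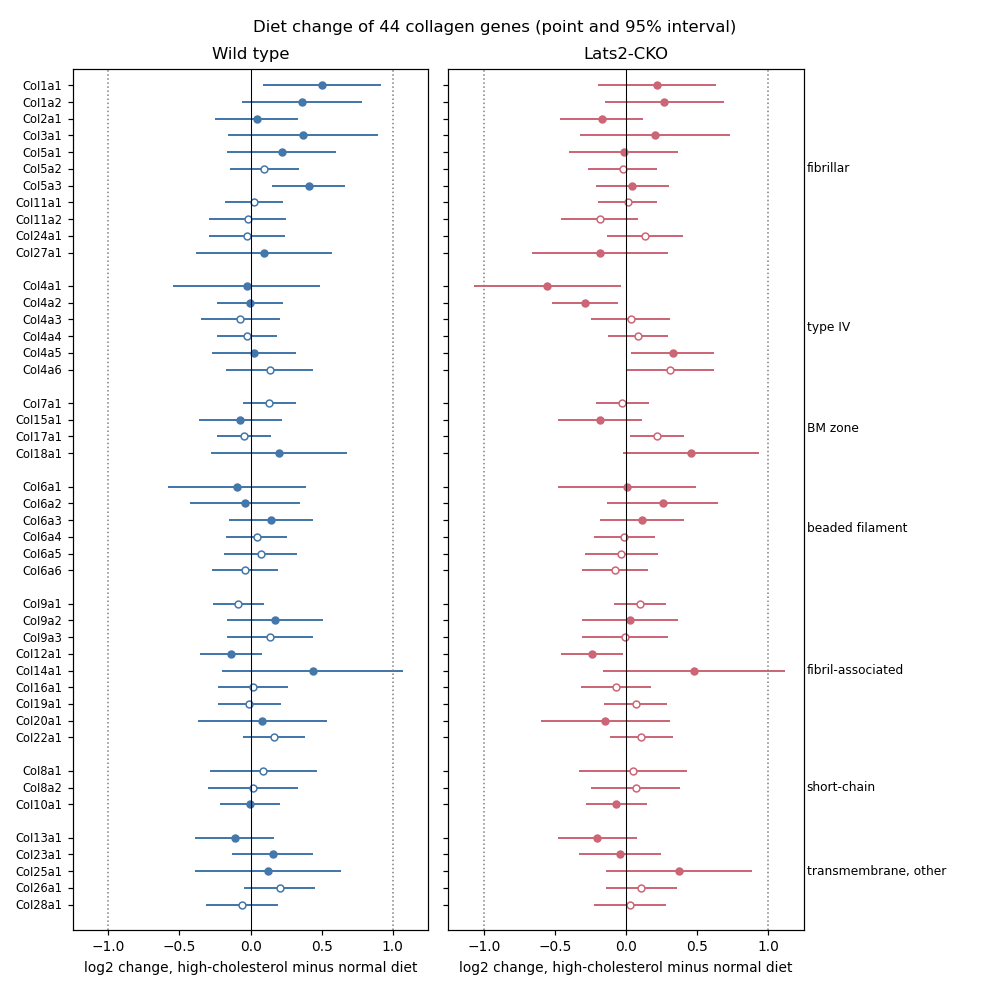
Log2 difference between HCD and ND for each of the 44 collagens, with its 95% interval, in wild-type (left) and Lats2-CKO livers (right), grouped by class. Open points mark collagens with a mean below the dim value, dotted lines mark 2-fold, and in each panel the intervals of all but 1 (wild type) or 2 (Lats2-CKO) of the 44 collagens stay between the dotted lines.

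The median difference over the 44 collagens was 0.04 for diet in wild type, compared with -0.02 over all genes, and 27 of 44 (61.4%) were higher, compared with 44.8% of all genes. In Lats2-CKO livers the median was 0.03 (all genes -0.02), and 25 of 44 were higher. For genotype on ND it was 0.07 (all genes 0.00), with 31 of 44 (70.5%) higher in Lats2-CKO, compared with 50% of all genes. On HCD it was 0.02, with 25 of 44 higher (52% of all genes). No test was made of these medians.

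Fibrillar and type IV collagens gave different medians for the interaction, without a test of that difference. The 11 fibrillar collagens had a median diet difference of 0.10 in wild type, with 9 higher, and of 0.01 in Lats2-CKO, with 6 higher. The 6 type IV collagens had medians of -0.01, with 2 higher, and 0.06, with 4 higher. For the interaction the fibrillar median was -0.17, with 1 of 11 above 0, and the type IV median was 0.10, with 4 of 6 above 0 (all genes 0.00, with 50.8% above 0). Both diet comparisons enter the interaction, so it repeats the same arrays.

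The medians moved when dim members were left out. The 7 fibrillar collagens above the dim value had a median diet difference of 0.36 in wild type, with all 7 higher, and of 0.04 in Lats2-CKO, with 4 of 7 higher. All genes above the dim value had medians of -0.03 and -0.01. On HCD these 7 had a median genotype difference of -0.23, with 1 of 7 higher in Lats2-CKO. The 3 type IV collagens above it had medians of -0.00 in wild type and -0.29 in Lats2-CKO. For the interaction both classes were then below 0, with a fibrillar median of -0.24 and 0 of 7 above 0, and a type IV median of -0.29 and 1 of 3 above 0, so the type IV direction turned. Within the lower set of arrays, with 1 wild-type array on ND (array 3), the wild-type diet differences of the 7 fibrillar collagens above the dim value were mixed. They were -0.03 for Col2a1, -0.06 for Col3a1 and -0.11 for Col5a1, and 0.23 for Col1a1, 0.03 for Col1a2 and 0.55 for Col5a3. Col27a1 was also higher on HCD there. Within the higher set, with 1 wild-type array on HCD, Col27a1 was lower and the rest were higher.

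The values of the groups compared rarely stood fully apart. Between the diets in wild type, 5 collagens were separately higher (Col1a1, Col5a3, Col7a1, Col22a1 and Col26a1) and 1 lower (Col12a1), compared with 4.97% and 8.81% of all genes. In Lats2-CKO 4 were separately higher (Col4a6, Col14a1, Col17a1 and Col18a1) and 2 lower (Col4a2 and Col12a1), compared with 8.98% and 10.5%. Col7a1, Col22a1, Col26a1 and Col4a6 had means below the dim value and were named after their values were seen.

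Col1a1 and Col1a2 encode the chains of type I collagen, the main fibre of liver scars. Col1a1 was 3.72, 3.57 and 3.94 in wild-type livers on ND and 4.39, 4.34 and 4.001 on HCD. In Lats2-CKO livers it was 3.51, 3.89 and 3.99 on ND and 3.91, 3.77 and 4.37 on HCD. The 2 diets did not overlap in wild type, while in Lats2-CKO only array 3 on HCD lay above all 3 on ND. The diet difference in wild type was 0.50 ± 0.18 (SE, 3 arrays a group, 95% interval 0.10 to 0.91), with an adjusted p in limma of 0.386. The difference in Lats2-CKO was 0.22 (limma adjusted p 0.670), and over both genotypes it was 0.36 ± 0.13 (adjusted p 0.183). In wild type it was 0.75 within the higher set of arrays and 0.23 within the lower set.

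Col1a2 was 3.35, 3.33 and 3.52 in wild type on ND and 4.18, 3.64 and 3.46 on HCD. The Lats2-CKO arrays gave 3.10, 3.11 and 3.49 on ND and 3.36, 3.39 and 3.76 on HCD. The groups overlapped in both genotypes, and array 1 of wild type on HCD was the highest of the 12. Its diet difference was 0.36 ± 0.19 in wild type (limma adjusted p 0.531) and 0.15 without that array, and within the 2 sets it was 0.84 and 0.03, so it was close to 0 in the lower set. The second probe set of Col1a2 gave 0.15 in wild type and -0.06 in Lats2-CKO, where the first gave 0.36 and 0.27, so the 2 probe sets differed.

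Col3a1, the chain of type III collagen, which accompanies type I in fibres, was 3.79, 3.46 and 4.09 in wild type on ND and 4.38, 4.38 and 3.68 on HCD. For Lats2-CKO the values were 3.65, 3.49 and 3.86, and then 4.01, 3.47 and 4.12. The diets overlapped in both genotypes, and 1 array in each high-cholesterol group lay as low as those on ND. The diet difference was 0.37 in wild type (limma adjusted p 0.621) and 0.20 in Lats2-CKO (adjusted p 0.775). In wild type it was 0.76 and -0.06 within the 2 sets, so its sign differed between them. The lower set holds 1 wild-type array on ND, array 3, which had the highest Col3a1 of the 3. The wild-type diet difference was 0.60 without array 3 on HCD and 0.21 without array 2 on ND.

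Col5a3 encodes a chain of type V collagen, which takes part in the start of fibre assembly. It was 3.55, 3.24 and 3.20 in wild type on ND and 3.72, 3.61 and 3.89 on HCD. Lats2-CKO livers had 3.37, 3.39 and 3.49, and then 3.48, 3.53 and 3.38. The diets were separate in wild type and overlapped in Lats2-CKO, and on HCD every wild-type array lay above every Lats2-CKO array. The diet difference was 0.41 ± 0.11 in wild type (limma adjusted p 0.328) and 0.04 in Lats2-CKO (adjusted p 0.912), and within the 2 sets in wild type it was 0.32 and 0.55. Its interaction was -0.37 ± 0.16, the smallest unadjusted p of any collagen there (0.0438), with a limma adjusted p of 0.888, and the genotype difference on HCD was -0.28 ± 0.11 (adjusted p 1).

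**Figure D2:**
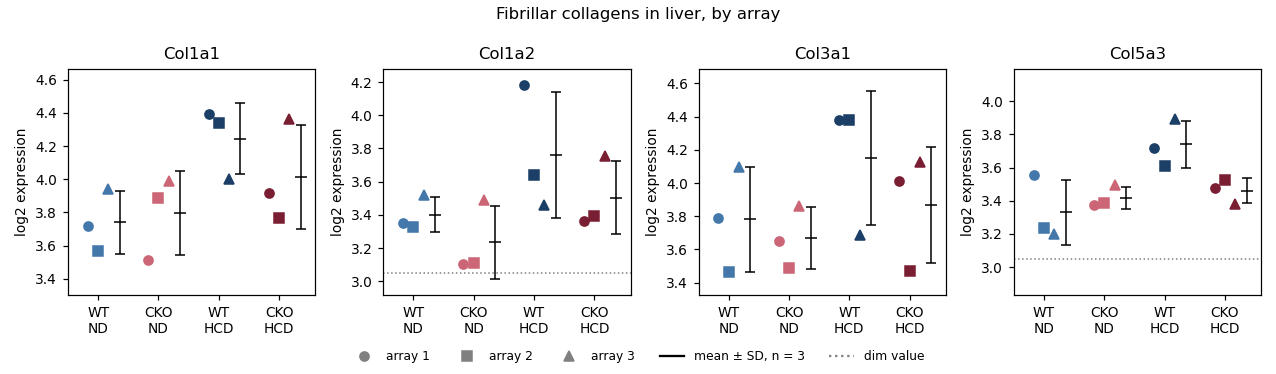
Log2 expression of Col1a1, Col1a2, Col3a1 and Col5a3 on each array by genotype and diet, with the mean and SD of 3 arrays beside the points and the dim value as a dotted line. Col1a1 and Col5a3 are separate between the diets in wild type, and no gene is separate between them in Lats2-CKO.

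The other type V chains named by rule did not separate. Col5a1 ranged from 2.94 to 3.51 over the 12 arrays, with diet differences of 0.22 in wild type and -0.02 in Lats2-CKO (limma adjusted p 0.695 and 0.982). Col5a2, whose mean lay below the dim value, was 0.23 ± 0.11 higher in Lats2-CKO than in wild type on ND (limma adjusted p 0.574) and 0.17 ± 0.08 higher over both diets (adjusted p 0.830).

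Upstream sequences from RefSeq (GRCm38.p6) were used for 35 of the 44 genes, as 38 windows of 250 bases before a start. Not analysed here were those of Col1a1, Col2a1, Col4a3, Col5a2, Col9a3, Col12a1, Col14a1, Col22a1 and Col26a1. Sequences are shown for Col3a1 (chr1:45311288-45311537, plus strand), Col1a2 (chr6:4505368-4505617, plus strand) and Col5a3 (chr9:20815068-20815317, minus strand), since these had the largest diet differences in wild type among the fibrillar genes apart from Col1a1. Each is 5′ to 3′ on its gene's strand, and capitals mark matches on either strand to 4 motifs, none of which overlap each other here. One is TATAAA, known as the TATA box, and another is CCAAT, which is named by its letters. GGGCGG is called a GC box, and CATTCC is the core bound by TEAD factors, the partners of YAP and TAZ.
Col3a1: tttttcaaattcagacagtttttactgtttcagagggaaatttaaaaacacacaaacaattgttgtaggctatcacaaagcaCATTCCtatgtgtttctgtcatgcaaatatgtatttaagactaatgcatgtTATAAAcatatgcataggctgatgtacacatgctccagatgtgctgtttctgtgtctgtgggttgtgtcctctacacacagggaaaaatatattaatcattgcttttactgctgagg
Col1a2: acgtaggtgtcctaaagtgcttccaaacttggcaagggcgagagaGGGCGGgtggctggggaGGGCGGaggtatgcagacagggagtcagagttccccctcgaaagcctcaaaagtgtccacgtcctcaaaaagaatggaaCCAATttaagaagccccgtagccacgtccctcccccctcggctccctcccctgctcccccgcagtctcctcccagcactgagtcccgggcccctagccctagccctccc
Col5a3: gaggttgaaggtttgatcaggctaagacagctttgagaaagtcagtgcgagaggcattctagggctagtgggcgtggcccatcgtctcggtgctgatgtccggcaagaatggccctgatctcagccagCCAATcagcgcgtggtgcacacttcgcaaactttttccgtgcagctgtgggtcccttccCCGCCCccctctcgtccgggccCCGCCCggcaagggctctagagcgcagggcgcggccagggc
The Col3a1 window holds 1 TATAAA, 117 bases before the start, and 1 CATTCC, 168 bases before it, and has a G+C content of 35.2%. Col1a2 and Col5a3 each hold 1 CCAAT and 2 GGGCGG and no CATTCC, with 62% and 62.8% G+C. Such matches are common. TATAAA stands in 5 of 38 collagen windows and 12.4% of all 32851 windows, CCAAT in 13 of 38 and 33.8%, GGGCGG in 22 of 38 and 32.7%, and CATTCC in 4 of 38 and 12.6%. A match is a description of these letters and no binding was measured.

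Of 6 pairs of collagens compared across arrays, 2 passed the test, both with Col1a1. For Col1a2, Col5a1 and Col6a1 only the probe set with the highest mean was used. Their second probe sets were not compared, so the Col1a2 result stands for the first probe set only. Col1a1 and Col1a2 correlated over the 12 arrays with Pearson's r = 0.83 (permutation p 0.00035, adjusted over 6 pairs 0.0021) and Spearman's rho = 0.92 (permutation p 9e-05, adjusted 0.00054). Without the 2 arrays farthest from the median of Col1a1, r was 0.73. Within the 2 sets of arrays it was 0.85 (exact p 0.0514) and 0.94 (exact p 0.0111), and for deviations from the group means 0.75. Col1a1 and Col3a1 gave r = 0.82 (permutation p 0.00148, adjusted 0.00444) and rho = 0.80 (permutation p 0.00315, adjusted 0.00945). Without those 2 arrays r was 0.74, and within the sets 0.83 and 0.82.

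The other 4 pairs did not pass. Col4a1 and Col4a2, which form 1 trimer, had r = 0.53 (permutation p 0.0771, adjusted 0.154) and rho = 0.43 (permutation p 0.162). That relation rested on 2 arrays, since without arrays 2 and 3 of Lats2-CKO on ND r was 0.04. Col6a1 and Col6a2 had r = 0.40 (permutation p 0.197, adjusted 0.296) and rho = 0.37 (p 0.239), and Col5a1 and Col5a2 r = -0.28 (p 0.371, adjusted 0.445) and rho = -0.24 (p 0.444). Col1a1 with Col4a1, a fibrillar against a basement membrane chain, had r = -0.12 (permutation p 0.714, adjusted 0.714) and rho = -0.32 (p 0.310).

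**Figure D3:**
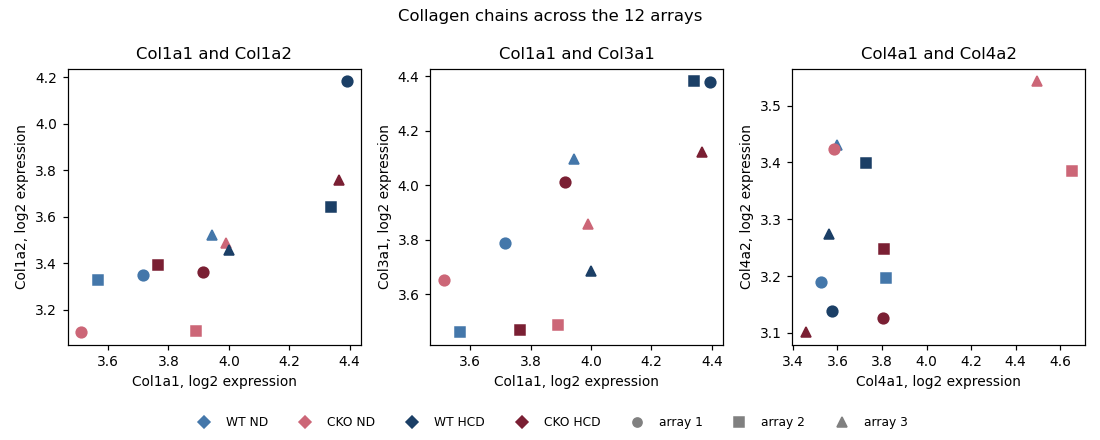
Log2 expression of 3 pairs of collagens on the 12 arrays, with colour for the group and shape for the array's number. Col1a1 runs with Col1a2 (r = 0.83) and with Col3a1 (r = 0.82), while in the right panel the 2 arrays with the highest Col4a1 both belong to Lats2-CKO on ND.

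Among basement membrane collagens, Col4a1 and Col4a2 encode the chains of the common type IV trimer and lie next to each other on chromosome 8 on opposite strands, with start windows that share 78 of 300 bases. Col4a1 was 3.53, 3.82 and 3.60 in wild type on ND and 3.57, 3.73 and 3.56 on HCD. Values in Lats2-CKO were 3.59, 4.65 and 4.49 on ND and 3.80, 3.81 and 3.46 on HCD. Arrays 2 and 3 of Lats2-CKO on ND stood above the other 10 arrays, and array 1 lay among them. The diet difference in Lats2-CKO was -0.55 ± 0.23 (95% interval -1.06 to -0.04, limma adjusted p 0.329), compared with -0.03 in wild type (adjusted p 0.982), and within the 2 sets it was -0.31 and -0.86.

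The call for Col4a1 changed when array 1 of Lats2-CKO on ND was left out. Then the diet difference was -0.88 ± 0.14 with a limma adjusted p of 0.0333, and 93 genes (0.419%) were then called. Without array 2 it was -0.35 and without array 3 -0.43. The genotype difference on ND was 0.60 ± 0.23 (adjusted p 0.458), and it was 0.45 and 0.89 within the 2 sets of arrays. Without array 1 of Lats2-CKO it was 0.93 (limma adjusted p 0.0576), and without array 2 it was 0.39.

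Col4a2 was 3.42, 3.38 and 3.54 in Lats2-CKO on ND and 3.13, 3.25 and 3.10 on HCD. In wild type it was 3.19, 3.20 and 3.43, and then 3.14, 3.40 and 3.27. The diets did not overlap in Lats2-CKO and did in wild type. The difference was -0.29 ± 0.10 in Lats2-CKO (limma adjusted p 0.237) and -0.00 in wild type (adjusted p 0.998), with an interaction of -0.29 ± 0.14 (adjusted p 0.920). Within the 2 sets the Lats2-CKO difference was -0.28 and -0.37.

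Col4a5, a chain of the specialised type IV network, was 2.84, 2.84 and 3.01 in Lats2-CKO on ND and 3.53, 2.96 and 3.17 on HCD, and between 2.96 and 3.10 on the 6 wild-type arrays. Array 1 of Lats2-CKO on HCD was the highest of the 12, and the groups overlapped. The difference was 0.33 ± 0.13 (limma adjusted p 0.299), and 0.17 without that array. That array held the highest value of 12 of the 44 collagens, most of which had means below the dim value. The highest value lay in Lats2-CKO on ND for 18 collagens, in Lats2-CKO on HCD for 15, in wild type on that diet for 9 and in wild type on ND for 2. The share over all genes was not computed for these counts, so no shift of the collagens is read from them.

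Col18a1, the chain of type XVIII collagen, a proteoglycan from which endostatin is cut, was 7.73, 7.76 and 8.10 in wild type on ND and 7.52, 8.27 and 8.40 on HCD. The Lats2-CKO levels were 7.69, 7.94 and 7.79, and then 8.04, 8.25 and 8.50. The diets were separate in Lats2-CKO and overlapped in wild type, where array 1 on HCD was the lowest of the 12. The difference was 0.46 ± 0.21 in Lats2-CKO (limma adjusted p 0.389), 0.20 in wild type (adjusted p 0.791) and 0.33 ± 0.15 over both (adjusted p 0.283). Within the 2 sets of arrays the last was 0.00 and 0.41.

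Col18a1 has 2 starts in RefSeq, and which of them the probe set reads was not determined. Both upstream windows are shown because they differ in the motifs searched, the first at chr10:77166531-77166780 and the second at chr10:77113706-77113955, both on the minus strand of GRCm38.p6, with capitals as above.
Col18a1 start 1: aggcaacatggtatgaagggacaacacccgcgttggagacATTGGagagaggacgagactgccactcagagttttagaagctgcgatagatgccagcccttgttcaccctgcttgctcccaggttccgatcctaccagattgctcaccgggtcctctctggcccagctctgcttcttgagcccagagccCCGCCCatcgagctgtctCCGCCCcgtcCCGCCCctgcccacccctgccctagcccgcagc
Col18a1 start 2: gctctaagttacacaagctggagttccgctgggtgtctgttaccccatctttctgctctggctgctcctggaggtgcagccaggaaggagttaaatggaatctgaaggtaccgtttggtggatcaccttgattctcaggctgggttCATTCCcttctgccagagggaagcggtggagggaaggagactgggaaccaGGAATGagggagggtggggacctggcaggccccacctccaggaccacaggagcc
The first window holds 1 CCAAT and 3 GGGCGG, all on the other strand, and has 62% G+C. The second holds 2 CATTCC, 104 and 54 bases before the start, and none of the other motifs, with 57.6% G+C.

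The remaining basement membrane zone collagens were dim or near it. Col15a1, the chain of type XV collagen, which lies beneath capillary and muscle basement membranes, ranged from 2.83 to 3.55, and its genotype difference over both diets was 0.19 ± 0.09 (limma adjusted p 0.834). Col17a1, a transmembrane collagen of epithelial attachment, was 2.73, 2.81 and 2.78 in Lats2-CKO on ND and 2.995, 2.92 and 3.06 on HCD. Those 2 groups did not overlap, but 11 of its 12 values lay below the dim value. Its diet difference there was 0.22 ± 0.08 (limma adjusted p 0.285).

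**Figure D4:**
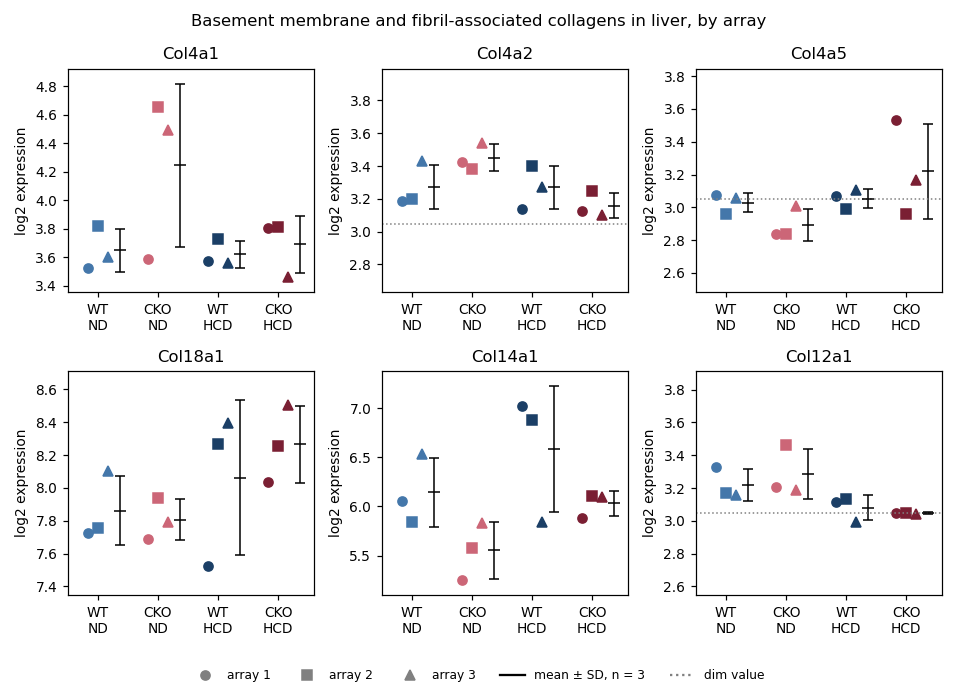
Log2 expression of 4 basement membrane collagens (Col4a1, Col4a2, Col4a5 and Col18a1) and 2 fibril-associated collagens (Col14a1 and Col12a1) on each array by genotype and diet, with the mean and SD of 3 arrays and the dim value as a dotted line. Col4a1 is high on 2 of 3 Lats2-CKO arrays on ND, and the 6 Col12a1 values on ND all lie above the 6 on HCD.

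Col14a1, a fibril-associated collagen expressed by fibroblasts, had the largest genotype differences below 0 of any collagen. It was 6.06, 5.84 and 6.53 in wild type on ND, 5.25, 5.57 and 5.83 in Lats2-CKO on ND, 7.02, 6.88 and 5.85 in wild type on HCD, and 5.88, 6.11 and 6.10 in Lats2-CKO on that diet. The genotypes were separate on ND and overlapped on HCD through array 3 of wild type. The genotype difference was -0.59 ± 0.29 on ND (limma adjusted p 0.590), -0.55 on HCD (adjusted p 1; -0.92 without array 3 of wild type and -0.33 without array 1) and -0.57 ± 0.20 over both diets (adjusted p 0.771). Within the 2 sets of arrays the last was -0.84 and -0.48.

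The diet difference of Col14a1 was 0.44 in wild type (limma adjusted p 0.630) and 0.48 ± 0.29 in Lats2-CKO (adjusted p 0.519). In wild type it was 0.81 without array 3 on HCD, 0.22 without array 1, and 0.29 without array 2 of either diet, and within the 2 sets it was 1.07 and -0.17. Over both genotypes it was 0.46 ± 0.20 (limma adjusted p 0.265), and 0.77 and 0.05 within the 2 sets of arrays.

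Col12a1, which also binds fibres and is known for its expression in tissue under tension, was the 1 collagen whose 6 arrays on ND and 6 on HCD did not overlap (0.974% of all genes were separate in that direction and 0.379% in the other). It was 3.33, 3.17 and 3.16 in wild type and 3.21, 3.46 and 3.19 in Lats2-CKO on ND. On HCD it was 3.11, 3.13 and 2.995 in wild type and 3.05, 3.05 and 3.04 in Lats2-CKO. All 6 values on that diet lay close to the dim value. The difference was -0.19 ± 0.07 over both genotypes (limma adjusted p 0.183), and -0.21 and -0.12 within the 2 sets of arrays.

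No type VI chain came near the threshold. Col6a1 ranged from 3.95 to 4.75 with diet differences of -0.09 and 0.01 in wild type and Lats2-CKO, Col6a2 from 2.82 to 3.58 with -0.04 and 0.26, and Col6a3 from 3.29 to 3.82 with 0.14 and 0.11. Their limma adjusted p values for diet lay between 0.570 and 0.994. The 6 type VI chains had a median diet difference of 0.00 in wild type and -0.00 in Lats2-CKO.

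Of the remaining collagens, Col23a1 and Col9a1 entered by their p. Col23a1, a transmembrane collagen, was 2.997, 3.11 and 3.23 in wild type and 3.62, 3.40 and 3.35 in Lats2-CKO on ND, without overlap. On HCD it was 3.21, 3.27 and 3.33 and then 3.68, 3.24 and 3.32, with overlap. The genotype difference was 0.35 ± 0.13 on ND (limma adjusted p 0.412) and 0.25 ± 0.09 over both diets (adjusted p 0.782). Col9a1, a cartilage chain below the dim value on all 12 arrays, differed by 0.19 ± 0.08 between genotypes on HCD (adjusted p 1).

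Between genotypes on ND 2 collagens were separately higher in Lats2-CKO (5.96% of all genes) and 4 lower (7.36%), and on HCD 1 was higher (4.07%) and 1 lower (3.37%). Over both diets 0 collagens separated the 6 wild-type from the 6 Lats2-CKO arrays in either direction (0.104% of all genes higher and 0.126% lower). The comparisons on 1 diet or in 1 genotype share groups with each other, so their values are not independent.

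The machinery around collagen was measured on the same arrays. Of 25 measured genes of collagen synthesis and maturation, 0 rose and 1 fell with the diet over both genotypes (0.365% and 0.870% of all genes). That gene was Bmp1, the protease that removes the C-terminal propeptide of fibrillar procollagens. It was 9.42, 9.67 and 9.26 in wild type and 9.82, 9.76 and 9.83 in Lats2-CKO on ND. On HCD it was 9.17, 8.93 and 9.40, and then 9.16, 8.96 and 9.16. Only array 3 of wild type on HCD lay within the range on ND, and the difference was -0.50 ± 0.10 (limma adjusted p 0.0407). The median of the list was -0.03, with 9 of 25 higher (44.7% of all genes). The call was kept in 7 of 20 alternative settings, with limma adjusted p between 0.00863 and 0.136. The lowest came without array 3 of wild type on ND, where 7.24% of all genes were called.

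Of 15 measured partners of collagen in basement membranes, 0 rose and 1 fell with the diet over both genotypes (0.365% and 0.870% of all genes). That gene was Lamb3, a chain of the laminin of epithelial attachment. It was 4.88, 4.99 and 3.38 in wild type and 4.66, 4.44 and 5.54 in Lats2-CKO on ND, and between 3.21 and 3.42 on the 6 arrays on HCD. Array 3 of wild type on ND lay within the range of HCD. The difference was -1.37 ± 0.27 (limma adjusted p 0.0433), and the median of the list was 0.08 with 10 of 15 higher (44.7% of all genes). The Lamb3 call was kept in 5 of 20 alternative settings, with limma adjusted p between 0.000668 and 0.145. Its lowest value also came without array 3 of wild type on ND.

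No member of the other 4 lists passed for diet over both genotypes (1.24% of all genes did). Among 12 genes of collagen degradation the smallest p was that of Mmp19, a metalloproteinase, at -0.36 ± 0.12 (limma adjusted p 0.159). Among 8 collagen receptors it was that of Itgb1, the integrin chain shared by collagen receptors, at 0.36 ± 0.12 (adjusted p 0.149). The receptors had a median of 0.08, with 7 of 8 higher (44.7% of all genes). Among 10 fibril partners it was that of Sparc, a collagen-binding protein, at -0.30 ± 0.14 (limma adjusted p 0.311). Among 14 fibrogenic signals it was that of Tgfbr1, a TGF-beta receptor, at 0.25 ± 0.11 (limma adjusted p 0.268). Of these signals 11 of 14 were higher (44.7% of all genes), with a median of 0.15. Mmp19 and Tgfbr1 were each called in 1 of 20 alternative settings, with lowest adjusted p in limma of 0.0493 and 0.042. For both it was the fit without array 3 of wild type on ND, where 1605 genes (7.24%) were called.

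Markers of the cells that make or surround collagen were read on the same arrays. The mean of 10 stellate cell markers lay between 5.25 and 5.97 over the 12 arrays, with a median diet difference of -0.09 over both genotypes, 1 of 10 higher (44.7% of all genes) and 0 called. It was 0.00 in wild type, with 5 of 10 higher, and -0.19 in Lats2-CKO, with 0 of 10 higher, and the interaction had a median of -0.32 with 1 of 10 above 0. None of these was called in any of the 7 contrasts, and the part of these markers in the fibrillar values was not tested. The means of 6 myofibroblast markers lay between 3.62 and 4.51 and those of 7 portal fibroblast markers between 3.44 and 3.65, with 0 called in either. The mean of 10 macrophage markers was 5.73, 6.15 and 6.41 in wild type on ND and 7.85, 7.77 and 6.41 on HCD. In Lats2-CKO livers the values were 5.52, 5.32 and 5.49, and then 5.88, 6.33 and 6.61. All 10 macrophage markers were higher with the diet over both genotypes, with a median of 1.07 (44.7% of all genes were higher), and 2 were called (0.365% of all genes), Clec4f and Cd5l (limma adjusted p 0.0327 and 0.0380). All 10 were lower in Lats2-CKO over both diets (50.7% of all genes were higher), with a median of -0.85 and 0 called (0.00451% of all genes). At an unadjusted p in limma below 0.05, 5 of these 10 were lower (3.77% of all genes).

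Arrays 1 and 2 of wild type on HCD were the highest of the 12 in macrophage markers. They were also among the 3 highest in Col1a1 and the 2 highest in Col3a1 and Col14a1. These collagens were picked after their values were seen, and not all collagens followed. Col18a1 and Col27a1 were lowest of the 12 on array 1 of wild type on HCD. The part of macrophages in the collagen values was not tested. The mean of 9 liver endothelial markers lay between 7.03 and 7.23 in wild type and between 6.55 and 6.88 in Lats2-CKO. Over both diets 0 of 9 were higher in Lats2-CKO (50.7% of all genes) and 0 were called (0.00451% of all genes). At an unadjusted p in limma below 0.05, 6 of 9 were lower (3.77% of all genes). Endothelial cells also express Col4a1, Col4a2 and Col18a1, and the part of this shift in their values was not tested.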

How the data were processed

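Total RNA of 12 livers was measured on Affymetrix arrays, 1 array per sample. Per the submitters' processing notes the authors used Partek 6.6 and RMA. The deposited values are log2 expression values per probe set, as their range from 1.94 to 14.2 shows, and were used as deposited. Of 41345 probe sets, 23521 had 1 gene symbol in the platform annotation, 1814 had several and 16010 had none, and only the first were used, with 1 probe set per gene (the highest mean). The genome build behind the probe sets is not given in the sources used here.

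A single limma (3.58.1, R 4.3.3) fit over the 12 arrays with 4 group means gave 7 contrasts, with Benjamini-Hochberg adjustment over 22180 genes and calls at 0.05. It was tested on simulated data with independent arrays and planted changes larger than any collagen difference in the full fit. Smaller changes were not covered by that test. The labels call the replicates biological. The members and gene lists were chosen with earlier results of these data known. Named by rule were 14 collagens of liver matrix, in each contrast the 3 collagens with the smallest p, collagens called or separating 6 from 6 arrays, and in each pathway list the called genes and the one with the smallest p for diet. Alternatives were 2 normalizations, blocks for replicate number and array set, 2 variance priors, a filter on dim genes, the mean of probe sets, fits on the compared groups, and each array left out. Those for pathway genes were chosen after seeing the data. Of 29 synthesis genes and 9 receptors, Plod3, Fkbp10, Adamts2, Loxl2 and Itga10 were not measured by a probe set with 1 symbol.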

Additional observations from a re-analysis of the deposited data

How the results depend on the processing

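The count of collagens called was 0 under 143 of 144 alternatives over the 7 contrasts, and no adjusted p in limma was below 0.05 there. The exception was diet in Lats2-CKO, where leaving out arrays in turn gave 0 to 1 called collagens. Deviations from the group means correlated at 0.00 to 0.18 for same-numbered arrays, with 7 of 18 pairs over 0.1, and at -0.23 to 0.18 for the others, with 1 of 36. By the mean correlation, 11 of 12 arrays were closest to arrays of their own number, which is a hint from the data and not from the design. The numbers largely run with the array sets. Every array 1 lay in the higher set and every array 3 in the lower, while array 2 lay in the higher set on ND and in the lower on HCD. All 7 same-numbered pairs over 0.1 were of arrays in the same set. The labels do not say that a number marks a shared batch, and not every pair was over 0.1, so the numbers were not taken to pair the samples. With the replicate number as a block, 0 collagens were called in every contrast, and the genes called numbered 58 for diet in Lats2-CKO (60 without it) and 311 for diet over both genotypes (274 without it). The 2 pathway calls made without the block were not made with it (Bmp1 and Lamb3, limma adjusted p 0.0541 and 0.0564). With the array set as a block instead, 43 genes were called for diet over both genotypes. Bmp1 and Lamb3 were not among them (limma adjusted p 0.0809 and 0.0855).

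Some class medians moved when dim members were left out. With dim genes or dim members left out, the fibrillar median was 0.36 for diet in wild type, -0.23 for genotype on HCD and 0.23 for diet over both genotypes. The type IV median was then -0.29 for diet in Lats2-CKO, 0.18 for genotype on ND, -0.15 for diet over both genotypes and -0.29 for the interaction. The other 295 of 309 alternatives for class medians moved by less than the spread between arrays. Of 2715 alternatives for single named collagens, 2713 stayed uncalled and were counted as unchanged. Where the unadjusted p over all arrays was below 0.05, this required the same sign only, and elsewhere a move smaller than the spread between arrays. Col4a1 for genotype on ND was so counted without array 1 of Lats2-CKO on ND, although it went from 0.60 to 0.93 with a spread of 0.32. The alternatives outside the 2713 were both Col4a1 without that array. They were the diet difference in Lats2-CKO, which was then called, and the interaction, which moved to -0.86 but was not called (limma adjusted p 0.325). Correlations that were not past the threshold changed sign: Col5a1 with Col5a2 to 0.0155 without 2 arrays, Col6a1 with Col6a2 to -0.14 in the lower set of arrays, and Col1a1 with Col4a1 to 0.16 without 2 arrays, 0.0278 in the higher set and 0.21 for deviations from group means. The cause was not tested. The low signal of 21 collagens limits what could be seen.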
